A study of Mus musculus with 47 samples.

Results

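Hepatic gene expression was compared between male and female mice that lacked the pregnane X receptor (PXR) and had received no antibiotics. These Pxr-/- Cont mice were the male Pxr-/- Cont group, with 5 mice, and the female Pxr-/- Cont group, with 6 mice, so 11 of the 47 mice of the series entered the comparison, with 1 array per mouse, and only genes on autosomes were counted. The animals were 6-month-old mice on the C57BL/6J background, Pxr-/- or Pxr+/+ littermates of Pxr+/- dams, and all were killed at zeitgeber time 6 h. The deletion was carried in the germline, so every tissue and both sexes had lacked the receptor since conception. Mice of a sex and genotype shared cages. Which mice were caged together is not given, so mice of a cage could not be told apart from independent mice. The 12 Pxr+/+ Cont mice (6 males and 6 females) and the 12 Pxr-/- mice given ampicillin, neomycin and vancomycin in the drinking water for 2 weeks (ATB, 6 males and 6 females) were used to ask whether the sex difference changed in size with genotype or treatment. The methods of the study state 6 mice per group, whereas the labels hold 5 male Pxr-/- Cont arrays.

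The liver is among the most sexually dimorphic organs of the mouse. Growth hormone leaves the pituitary in separate pulses in males and more continuously in females, and the transcription factor STAT5B, switched on by each pulse, sets much of the male and female pattern of hepatic cytochromes P450, sulfotransferases, carriers and secreted proteins. The repressors BCL6, typical of males, and CUX2, typical of females, and the factor HNF6 (Onecut1) act on many of the same genes. PXR, encoded by Nr1i2, is a nuclear receptor that binds drugs, steroids and bile acids and induces genes of xenobiotic processing, several of which are themselves sex-biased.

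Promoters of 6 genes are shown because the results below turn on these genes. Hsd3b5 had the largest male-higher difference, Sult3a1 and Slc22a26 were the female-higher genes among the 12 largest with both searched motifs in their promoter, Slco1a4 was the gene whose sex difference differed most clearly from that in Pxr+/+ mice, and Cyp2b9 and Cyp2b13 were neighbouring female-higher genes. Each sequence runs 5′ to 3′ from 250 bases before to 50 bases after the start of the RefSeq transcript, in build GRCm38.p6. The positions are chr3:98645485-98645784, minus strand for Hsd3b5, chr10:33857472-33857771, plus strand for Sult3a1, chr19:7802618-7802917, minus strand for Slc22a26, chr6:141856171-141856470, minus strand for Slco1a4, chr7:26173159-26173458, plus strand for Cyp2b9 and chr7:26061245-26061544, plus strand for Cyp2b13. In the first 4 sequences capitals mark the first transcribed base and any match to the letters TTCNNNGAA, the core of a STAT5 site, or ATCAAT, the core of an HNF6 site, each sought on both strands.

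Hsd3b5: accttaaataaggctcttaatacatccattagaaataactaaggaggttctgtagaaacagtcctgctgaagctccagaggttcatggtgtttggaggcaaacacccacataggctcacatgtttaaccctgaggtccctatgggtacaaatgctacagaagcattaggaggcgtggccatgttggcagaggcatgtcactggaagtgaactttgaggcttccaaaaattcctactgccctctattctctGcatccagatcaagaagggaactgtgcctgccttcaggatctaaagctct
Sult3a1: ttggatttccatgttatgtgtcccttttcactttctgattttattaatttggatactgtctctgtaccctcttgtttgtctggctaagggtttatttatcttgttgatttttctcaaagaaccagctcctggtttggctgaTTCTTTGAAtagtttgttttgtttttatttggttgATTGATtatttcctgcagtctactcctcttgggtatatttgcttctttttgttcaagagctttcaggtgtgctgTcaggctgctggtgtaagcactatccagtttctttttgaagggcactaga
Slc22a26: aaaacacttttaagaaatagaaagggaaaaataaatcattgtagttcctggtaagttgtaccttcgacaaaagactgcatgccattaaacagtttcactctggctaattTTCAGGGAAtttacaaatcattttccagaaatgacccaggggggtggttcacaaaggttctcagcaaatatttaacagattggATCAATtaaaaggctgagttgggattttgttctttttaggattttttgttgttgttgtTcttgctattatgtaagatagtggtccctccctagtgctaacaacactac
Slco1a4: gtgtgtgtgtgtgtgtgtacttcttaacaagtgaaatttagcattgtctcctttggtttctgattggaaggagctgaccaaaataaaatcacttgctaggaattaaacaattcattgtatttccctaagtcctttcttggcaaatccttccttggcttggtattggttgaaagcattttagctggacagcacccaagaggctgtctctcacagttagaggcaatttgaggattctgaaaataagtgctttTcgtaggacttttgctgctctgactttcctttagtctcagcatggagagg

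The promoters of Cyp2b9 and Cyp2b13 were identical at 298 of 300 positions, and here capitals mark the 2 positions that differ. The promoter of Cyp2b10, the third member of the family, matched Cyp2b9 at 77 and Cyp2b13 at 76 of the 300 positions when aligned on the start.

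Cyp2b9: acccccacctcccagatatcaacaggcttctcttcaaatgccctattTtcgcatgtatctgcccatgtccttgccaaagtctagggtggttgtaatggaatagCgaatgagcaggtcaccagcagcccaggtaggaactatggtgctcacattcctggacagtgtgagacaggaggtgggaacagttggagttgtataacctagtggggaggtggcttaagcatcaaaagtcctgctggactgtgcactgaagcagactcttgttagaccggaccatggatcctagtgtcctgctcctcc
Cyp2b13: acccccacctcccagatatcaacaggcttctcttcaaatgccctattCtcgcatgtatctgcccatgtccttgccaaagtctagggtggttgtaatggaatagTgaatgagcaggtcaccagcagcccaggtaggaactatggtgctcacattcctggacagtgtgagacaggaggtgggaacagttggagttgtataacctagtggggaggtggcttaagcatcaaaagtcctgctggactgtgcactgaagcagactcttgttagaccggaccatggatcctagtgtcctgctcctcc

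RefSeq promoters were found for 14 of the 24 genes with the largest differences. Of these, 2 held the STAT5 letters and 3 the HNF6 letters. Among promoters of all genes, 8.3% of 32851 held the STAT5 letters and 7.54% the HNF6 letters. The STAT5 letters occurred in 6.91% of 492 promoters of male-higher genes and 8.48% of 2819 promoters of female-higher genes, beside 7.26% of promoters of tested autosomal genes. For the HNF6 letters the shares were 8.33%, 5% and 4.75%, respectively. A match gives the letters in this window and nothing on whether a factor was bound there.

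Overall signal overlapped between the 2 groups. The 75th percentile of the median spot intensity lay between 306 and 386 in the males and between 333 and 486 in the females, and 31663 to 32671 probes in males and 31814 to 33629 in females were well above background. Xist, the X-inactivation transcript of females, was not well above background in any of the 5 males and was so in all 6 females, and the Y-linked genes Ddx3y, Eif2s3y and Uty showed the opposite, so the arrays matched their labelled sex. Y-linked Kdm5d did so by all but 1 of its probes. That probe was well above background in all 5 males and all 6 females, with a log2 difference of 0.14. Nr1i2 was reported by a probe at chr16:38248745-38248804 (mm9), whose signal remained in the Pxr-/- mice, at 11.37 ± 0.25 (mean ± SD, n = 5) in males and 11.68 ± 0.19 (n = 6) in females, beside 11.65 ± 0.28 and 11.98 ± 0.31 in Pxr+/+ males and females (n = 6 each). Which part of the gene was deleted is not given in the sources used here, so this probe does not check the genotype labels. Female replicate 1 stood apart in genes of the acute phase response. The mean log2 signal of 22 acute phase genes was 15.68 in this mouse, whereas it was 13.45 to 14.01 in the other 5 females and 13.05 to 13.83 in the males, and the differences of genes named below in which this mouse was extreme by Dixon's criterion (its gap to the nearest female against the range of all females) are therefore given with and without it. The samples were whole liver, in which fewer cells of a type and less RNA per cell cannot be told apart.

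Male and female Pxr-/- livers differed widely, and the largest differences were those of steroid-metabolizing and drug-metabolizing enzymes. A gene was called when a probe passed a Benjamini-Hochberg adjusted p of 0.05 or less in limma and a fold change above 1.2. Of 20921 autosomal genes, 603 were higher in males (2.88% of those tested) and 3316 in females (15.9%), and 9 genes had probes called in both directions and count in both numbers. These values were normalized with CrossNorm, which lets the overall signal differ between groups. After quantile normalization, which gives all 47 arrays the same distribution, 1608 genes were higher in males (7.69%) and 1465 in females (7%). The share of female-higher calls was 84.6% with CrossNorm and 47.7% with quantile normalization, and the median log2 difference (male less female) of all autosomal probes was -0.12 and 0.02, respectively. The table of log2 values that the authors deposited gave 1035 male-higher and 2339 female-higher genes in the same model. All 603 male-higher genes were among the 1608, and all 1465 were among the 3316. With no normalization between arrays 564 genes were male-higher and 2951 female-higher. With spike-in scaling the numbers were 526 and 3007, so both settings kept the female excess. The balance of small differences between the sexes therefore rested on the normalization. It also rested on single mice, since without female replicate 3 there were 2028 female-higher genes.

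Larger differences were less uneven. Past 2-fold, 171 genes were male-higher and 265 female-higher (219 and 191 after quantile normalization). Past 4-fold the numbers were 47 and 73 (53 and 61), and past 16-fold 10 and 21. In 1522 genes (7.27%) all male values lay above or all lay below every female value, so that the 2 groups did not overlap. Within each of the 3 wash batches, 122 of the 123 called genes named in the text and 24 of the 24 largest had the same direction. These genes were chosen as called on the same mice, the 24 also for groups that did not overlap. The signs are therefore no independent check of the batches, and wash batch 3 held only male replicate 6 and female replicate 6. Of the 594 genes called male-higher alone, 305 had such separate groups and 26 were not well above background in any female. Of the 3307 called female-higher alone, 1094 had separate groups and 75 were not well above background in any male.

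The 12 genes with the largest male-higher differences were led by enzymes of steroids and fatty acids. Hsd3b5, a male-typical 3β-hydroxysteroid dehydrogenase family member that reduces ketosteroids (probe at chr3:98422576-98422635, mm9), had normalized log2 signals of 13.58, 14.22, 14.23, 14.26 and 14.47 in the 5 males (replicates 2 to 6) and 4.81 to 6.17 (median 5.16) in the 6 females. Every male lay far above every female, and the log2 difference was 8.88 ± 0.34 (SE, adjusted p = 5.97e-25), with 9.02 after quantile normalization. Cyp4a12b, which with its near-identical neighbour Cyp4a12a hydroxylates arachidonic acid and other fatty acids, measured 12.51, 13.36, 13.09, 13.74 and 13.11 in males and 4.67 to 4.78 (median 4.73) in females, in none of which (0 of 6) it was well above background. The male signal was at least 346-fold higher (adjusted p = 1.24e-38), and that of Cyp4a12a at least 285-fold higher (adjusted p = 9.81e-38). The probes of these 2 genes, at their best ungapped offset, had the same base at 23 of 60 positions. Whether either probe also binds the other transcript was not tested. Elovl3, an elongase of long-chain fatty acids, measured 14.07, 14.30, 14.67, 14.81 and 14.25 in males and 6.99 to 8.86 (median 8.05) in females. The groups were again separate, with a log2 difference of 6.41 ± 0.37 (SE, adjusted p = 3.51e-18).

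The rest of this group included a carrier, acetyltransferases and 2 cytochromes P450. Slco1a1, an uptake carrier of organic anions such as bile acid and steroid conjugates, had log2 signals of 12.41, 12.77, 12.90, 12.28 and 12.57 in males and 4.73 to 8.71 (median 6.30) in females. Its female values spread widely, yet none reached a male value (log2 difference 6.10, SE 0.51, adjusted p = 1.41e-12). Nat8f5 and Nat8, of the N-acetyltransferase 8 family that acts on cysteine conjugates, differed by 6.35 ± 0.30 (SE, adjusted p = 3.86e-21) and 5.86 ± 0.17 (SE, adjusted p = 9.62e-30). Cyp2d9, the male-typical testosterone 16α-hydroxylase, was abundant in both sexes, with 14.60, 14.24, 14.45, 14.09 and 14.28 in males and 10.26 to 10.83 (median 10.64) in females, and its values did not overlap (log2 difference 3.72, SE 0.12, adjusted p = 9.74e-28). Cyp2d34 differed by 4.36 ± 0.12 (SE, adjusted p = 6.68e-30) and the gene model Gm4956 by 5.45 ± 0.18 (SE, adjusted p = 1.02e-26). Without female replicate 1, its lowest female, the Gm4956 difference was 5.29. Susd4, an inhibitor of complement, differed by 4.53 ± 0.19 (SE, adjusted p = 5.20e-23) by its brightest probe and by 1.00 by another. Tff3, a secreted trefoil peptide, differed by 3.85 ± 0.39 (SE, adjusted p = 3.55e-10).

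The female-higher side was led by hydroxysteroid sulfotransferases, which add sulfate to steroids and bile acids. Sult2a1 (probe at chr7:14381602-14381661, mm9) had log2 signals of 4.30, 4.30, 4.56, 4.21 and 4.12 in males, where it was well above background in 0 of 5 mice, and 15.60 to 16.67 (median 16.09) in females. It was at least 3013-fold higher in females (adjusted p = 6.68e-30), the largest of the bounds. Sult2a2, Sult2a6, Sult2a4 and Sult2a3 likewise were not well above background in males and were at least 2705-fold, 2382-fold, 905-fold and 82.8-fold higher in females (adjusted p between 7.13e-31 and 1.22e-15). A second Sult2a6 probe differed by -4.75. These genes lie together on chromosome 7 and are much alike. The Sult2a1 and Sult2a2 probes shared 54 of 60 bases and the Sult2a1 and Sult2a4 probes 51, so their signals may not be separate measurements. Sult3a1, a sulfotransferase of amines on chromosome 10, measured 6.71, 4.06, 4.77, 4.39 and 4.57 in males and 11.94 to 13.31 (median 12.64) in females. Male replicate 2 was higher than the other males but still below all females (log2 difference -7.78, SE 0.39, adjusted p = 2.03e-20).

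Oxidative enzymes and carriers followed. Cyp2b13, whose promoter is shown above, measured 4.59, 4.16, 4.73, 4.30 and 4.03 in males and 12.73 to 14.16 (median 13.64) in females and was at least 499-fold higher in females (adjusted p = 8.22e-30). Its neighbour Cyp2b9 was above background in males too, at 9.34, 9.27, 8.23, 8.62 and 8.52, with 15 to 15.97 (median 15.66) in females (log2 difference -6.80, SE 0.32, adjusted p = 3.27e-21). The 2 genes thus had nearly the same promoter letters and a common direction, with a higher male signal at the Cyp2b9 probe than at the Cyp2b13 probe, although signals of different probes are not on a common scale. Cyp3a44, a female-typical steroid and drug hydroxylase, was at least 181-fold higher in females (adjusted p = 8.72e-26). Slc22a26, a carrier of the organic anion transporter family, measured 5.17, 4.87, 5.57, 4.91 and 5.33 in males and 11.23 to 12.03 (median 11.79) in females (log2 difference -6.58, SE 0.18, adjusted p = 2.36e-30). A further transcript, ENSMUST00000121135, has no gene symbol in the files and differed by -9.36 ± 0.30 (SE, adjusted p = 9.74e-28). Quantile normalization moved the male-higher differences by at most 0.15 and the female-higher differences by at most 0.16.

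**Figure D1:**
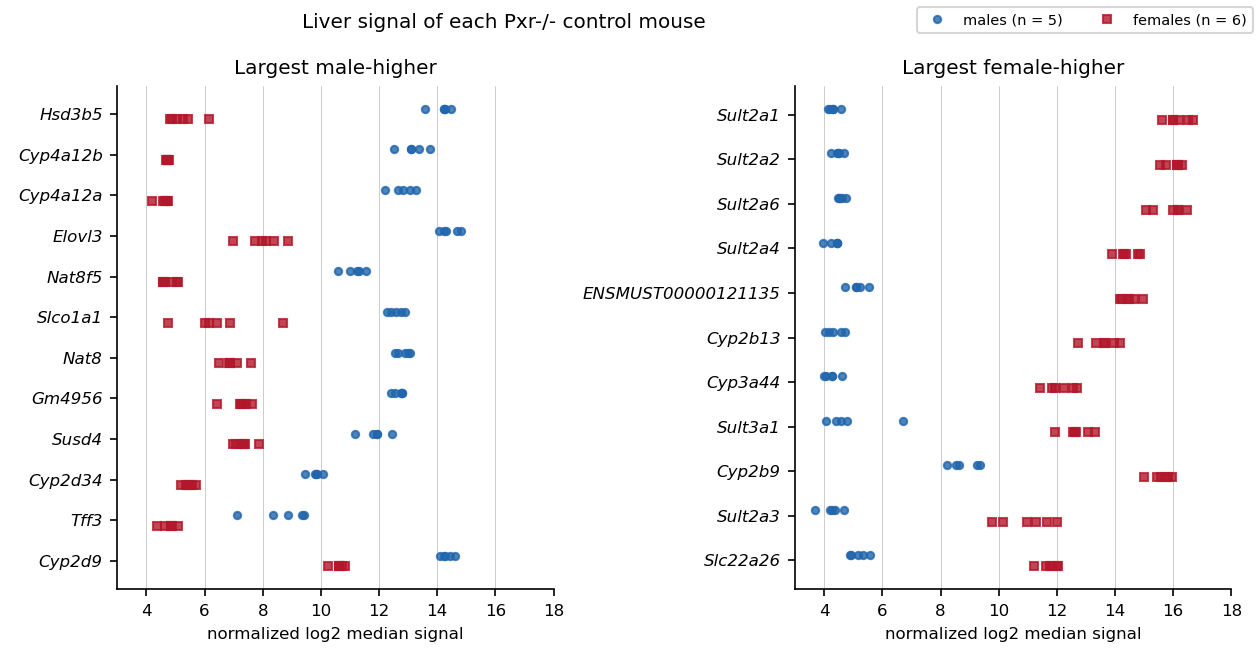
Normalized log2 median signal (x axis) of each Pxr-/- control mouse for the 12 genes with the largest male-higher difference (left) and 11 of the 12 with the largest female-higher difference (right), males as blue circles (n = 5) and females as red squares (n = 6). In every gene shown the 2 groups are apart, and most Sult2a points of the males lie near 4 to 5, at the level of the background.

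The cytochrome P450 subfamilies differed in direction, and several held genes of both directions. All 3 Cyp2b genes were female-higher (median log2 difference -6.80), including Cyp2b10, the classical target of the receptors CAR and PXR, at -5.26 ± 0.35 (SE, adjusted p = 5.96e-16). Of 8 Cyp3a genes, which hydroxylate steroids and drugs, 5 were female-higher and 0 male-higher (median -0.80). Cyp3a11, a classical PXR target, differed by -0.98 (adjusted p = 1.32e-04) in mice without PXR, and Cyp3a16 and Cyp3a41a by -1.42 and -0.84. After quantile normalization 5 were female-higher and 2 male-higher. The background for such counts is 15.9% female-higher and 2.88% male-higher genes, and the median of all autosomal genes was -0.13.

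The Cyp2c genes went both ways, with 5 male-higher and 9 female-higher of 15, Cyp2c50 counted in both because its probes disagreed. The male-higher count was 2 without male replicate 2 and 3 without female replicate 1. The female-higher ones included Cyp2c68, Cyp2c69, Cyp2c67 and Cyp2c40, at -2.68, -2.44, -2.29 and -2.28 (adjusted p from 5.18e-17 to 4.13e-14), of which the Cyp2c67 and Cyp2c68 probes shared 55 of 60 bases. Male-higher were Cyp2c38 at 0.46, and Cyp2c65 and Cyp2c66, which were well above background in all 5 males and in 0 of 6 females. In the Cyp2d family 5 of 9 were male-higher, among them Cyp2d11 at 1.03 (adjusted p = 1.94e-08) and Cyp2d12 at 0.53 (adjusted p = 1.29e-04), and Cyp2d26, counted among them, also had a female-higher probe, which lost its call without female replicate 4. The Cyp4a genes, ω-hydroxylases of fatty acids, split cleanly, since Cyp4a12a and Cyp4a12b were male-higher and Cyp4a14, Cyp4a31 and Cyp4a10, which are targets of the fatty acid receptor PPARA, were female-higher at -4.07 ± 0.53 (SE, adjusted p = 1.76e-07), -1.88 ± 0.43 (SE, adjusted p = 0.00191) and -1.83 ± 0.42 (SE, adjusted p = 0.00185). Cyp4a14 measured 6.29, 6.26, 7.28, 5.29 and 6.06 in males and 9.39 to 11.47 (median 10.29) in females. Of the 4 Cyp2a genes only Cyp2a4, a testosterone 15α-hydroxylase, was called, at -1.16 (adjusted p = 0.00235), and at -1.37 without female replicate 1. The count of called Cyp2a genes was 2 when female replicate 1, male replicate 2 or male replicate 4 was left out. The flavin monooxygenases Fmo2 and Fmo1 were female-higher at -2.43 and -1.03.

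Conjugating enzymes divided by family. Of 18 sulfotransferases, 13 were female-higher and 1 male-higher under both normalizations (median -2.0). The exception, Sult2a8, a hydroxysteroid sulfotransferase of the same family as the leading genes, was male-higher at 1.30 (adjusted p = 1.34e-09). Sult1e1, which sulfates oestrogens, was female-higher at -1.51 (adjusted p = 0.0203). The UDP-glucuronosyltransferases leaned the other way, with 7 of 14 male-higher (8 after quantile normalization) and 1, Ugt1a6b, with a probe called in each direction. Ugt2b1 differed by 1.30 ± 0.15 (SE, adjusted p = 7.56e-09), and Ugt2b35, Ugt2b37 and Ugt2b5 by 0.71, 0.65 and 0.62. Among 23 glutathione S-transferases 4 were male-higher and 10 female-higher (4 and 6 after quantile normalization, and 6 female-higher without male replicate 5). The pi-class genes Gstp1 and Gstp2 were male-higher by 2.74 ± 0.16 (SE, adjusted p = 8.57e-18) and 1.85 ± 0.12 (SE, adjusted p = 1.25e-16), whereas Gstm2 and Mgst3 were female-higher at -0.95 and -1.10.

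Gstp1 measured 14.75, 14.40, 14.69, 14.52 and 14.42 in males and 11.53 to 12.03 (median 11.84) in females, so its groups were separate. Hydrolases of esters leaned to males and those of acyl-CoA to females. Of 17 carboxylesterases, which split drug and lipid esters, 7 were male-higher and 3 female-higher, led by Ces2c (1.72, SE 0.25, adjusted p = 1.97e-06), Ces2b (1.68), Ces3b (1.37) and Ces3a (1.06). Of 12 acyl-CoA thioesterases, which free fatty acids from coenzyme A, 8 were female-higher and 0 male-higher (6 and 0 after quantile normalization). Acot3, a peroxisomal member, measured 7.09, 7.16, 7.61, 7.50 and 8.92 in males and 11.02 to 13.37 (median 11.61) in females (log2 difference -4.12, SE 0.41, adjusted p = 1.75e-10). The values of males and females did not overlap, and Acot5, Acot4 and Acot2 followed at -1.79, -1.75 and -1.49. A second Acot5 probe, at -0.06, was not called.

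Steroid and bile acid enzymes also had opposite leaders. Of 27 steroid dehydrogenases and reductases 7 were male-higher and 3 female-higher (9 and 2 after quantile normalization), with Hsd3b2 counted in both, and 6 were female-higher without female replicate 1 or female replicate 2. Srd5a1, the 5α-reductase of testosterone, differed by 1.77 ± 0.14 (SE, adjusted p = 1.39e-13), Hsd3b6 by 0.98 and, in the female direction, Hsd17b6 by -1.41 ± 0.30 (SE, adjusted p = 8.57e-04). The 2 lists of genes known to be sex-biased in liver, chosen with these results known, held 32 female-biased genes, of which 32 were female-higher, and 19 male-biased genes, of which 17 were male-higher. In the 28 genes of bile acid synthesis and transport 4 were male-higher and 6 female-higher, a split that turned to 6 and 4 after quantile normalization. Cyp7b1, the oxysterol 7α-hydroxylase of the alternative pathway, measured 13.97, 13.96, 14.67, 14.05 and 13.29 in males and 10.87 to 11.51 (median 11.39) in females, with no overlap (log2 difference 2.71, SE 0.19, adjusted p = 2.49e-15). Cyp8b1, the 12α-hydroxylase that makes cholic acid, was male-higher by 1.32 ± 0.32 (SE, adjusted p = 0.00306). Female-higher were Cyp39a1, a 24-hydroxycholesterol 7α-hydroxylase, at -1.19 (adjusted p = 3.37e-06; -1.36 without female replicate 1), and the efflux pump Abcc4 at -1.29 (adjusted p = 9.88e-06).

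Of 28 organic anion and cation carriers, 3 were male-higher and 9 female-higher (4 and 7 after quantile normalization). Beside Slc22a26, Slc22a27 differed by -4.97 ± 0.23 (SE, adjusted p = 2.94e-21), Slc22a29 by -3.39 and Slc22a5, the carnitine carrier, by -1.03 (adjusted p = 0.00268). Slco1a1 and Slco1a4, neighbouring family members on chromosome 6 with overlapping substrates, had opposite directions. Of 23 PXR target genes 11 were female-higher and 1 male-higher (10 and 3 after quantile normalization), with a median of -0.42, in livers that lacked PXR. The male-higher count fell to 0 for 9 of the 11 mice left out in turn. They included Akr1b7, an aldose reductase family member, at -3.20 ± 0.25 (SE, adjusted p = 1.50e-13), and the drug efflux pump Abcb1a at -1.72 ± 0.21 (SE, adjusted p = 2.06e-08). Cyp2c55, a further PXR target, was not called, at 0.39 ± 0.26 (SE, adjusted p = 0.322).

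**Figure D2:**
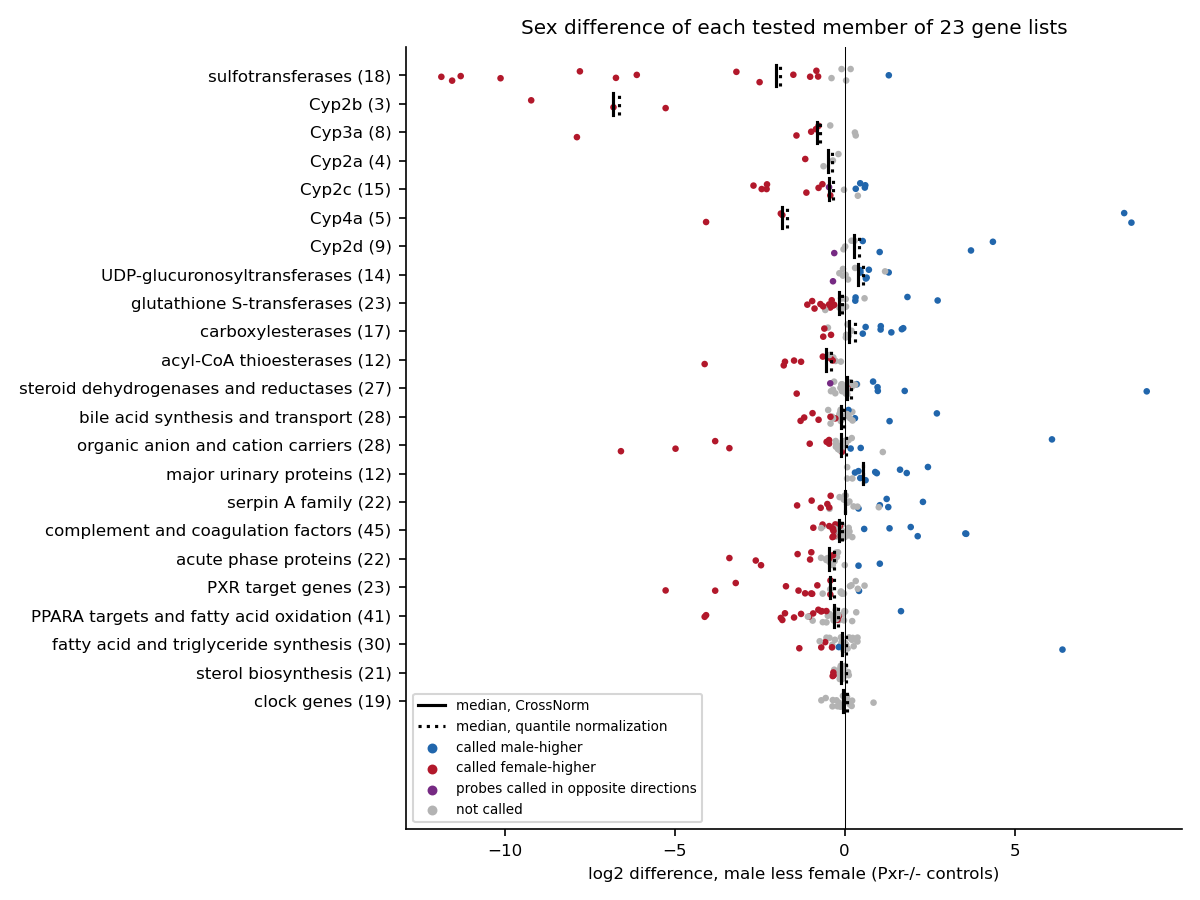
Log2 difference, male less female, of each tested member of 23 gene lists in Pxr-/- control mice (x axis, 1 point per gene, number of tested members in parentheses), coloured by call, with solid and dotted bars for the list's median under CrossNorm and quantile normalization. Sulfotransferases and Cyp2b genes lie to the female side, with medians of -2.0 and -6.80, and most called major urinary proteins and UDP-glucuronosyltransferases to the male side.

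Secreted liver proteins included genes of either direction. Of 12 major urinary protein genes, which code for pheromone carriers excreted in urine, 9 were male-higher and 0 female-higher under both normalizations (median 0.54). Mup6 differed by 2.45 ± 0.23 (SE, adjusted p = 5.07e-11), Mup11 by 1.83, Mup5 by 1.63 and Mup20, known as darcin, by 0.95. Without female replicate 1, the highest female for these 3 genes, Mup11 differed by 2.09, Mup5 by 1.83 and Mup20 by 1.02. A second Mup20 probe differed by 3.39 and a second Mup6 probe by 1.52. The brightest probes of the 4 genes, each pair at its best ungapped offset, shared 19 to 22 of 60 bases. Whether they also bind transcripts of other family members was not tested. Of 22 serpin A genes, a family of protease inhibitors, 5 were male-higher and 6 female-higher (6 and 4 after quantile normalization, and 3 female-higher without male replicate 6). Serpina12, also called vaspin, differed by 2.30 ± 0.23 (SE, adjusted p = 1.94e-10) and Serpina6, the corticosteroid-binding globulin, by -1.40 ± 0.19 (SE, adjusted p = 5.39e-07).

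Within the complement system, several components of the membrane attack complex, the pore at the end of the cascade, were male-higher. C6 measured 11.34, 11.54, 11.94, 11.58 and 10.93 in males and 7.64 to 8.46 (median 7.78) in females. No female reached a male value, and the log2 difference was 3.58 ± 0.17 (SE, adjusted p = 8.27e-21). C8a and C8b differed by 2.15 ± 0.29 (SE, adjusted p = 4.20e-07) and 1.94 ± 0.22 (SE, adjusted p = 4.30e-09), and without female replicate 1 by 2.54 and 2.19. C9 differed by 1.32 (adjusted p = 9.30e-07), whereas C8g at 0.00, C7 at -0.14 and Hc, which codes for C5, at 0.11 were not called. Cfd, complement factor D or adipsin, measured 6.79, 9.34, 10.55, 9.05 and 8.32 in males and 4.39 to 7.66 (median 4.95) in females (log2 difference 3.55, SE 0.57, adjusted p = 1.24e-05). Its highest female was replicate 1, without which the difference was 4.03. In the whole list of 45 complement and coagulation genes 6 were male-higher and 11 female-higher, against 9 and 4 after quantile normalization, so the direction of the smaller differences in this list turned with the normalization. The female-higher count was 6 without male replicate 3, 7 without female replicate 1, female replicate 4 or male replicate 5, and 17 without female replicate 5. Mbl2, a mannose-binding lectin, was female-higher under both, at -0.92 (adjusted p = 1.05e-06).

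Of 22 acute phase genes 8 were female-higher and 2 male-higher (7 and 2 after quantile normalization). Hamp2, a hepcidin, differed by -3.39 ± 0.41 (SE, adjusted p = 3.52e-08), and Fgl1 by -1.38. A second Fgl1 probe, at -0.40, was not called. Orm3, an orosomucoid, and Lcn2, which binds bacterial siderophores, differed by -2.61 ± 0.52 (SE, adjusted p = 3.85e-04) and -2.46 ± 0.74 (SE, adjusted p = 0.0182). Lcn2 measured 10.39, 7.42, 8.67, 8.58 and 7.41 in males and 8.80 to 15.98 (median 10.38) in females, and Orm3 7.90, 6.95, 7.25, 7.70 and 6.87 and 8.42 to 13.96 (median 9.29). In both genes the highest value was that of female replicate 1. Without this mouse the difference of Orm3 was -1.81 (adjusted p = 1.59e-04) and that of Lcn2 -1.45 (adjusted p = 0.0642), which no longer passed. Lcn2 also lost its call without male replicate 3 or male replicate 6. Both genes lost the call when only the compared groups were fitted.

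Among lipid genes, PPARA targets were called mainly on the female side, and genes of lipid synthesis were called female-higher at about the background share of 15.9%. Of 41 PPARA target and fatty acid oxidation genes 15 were female-higher and 1 male-higher (10 and 2 after quantile normalization). Beside the Acot and Cyp4a genes named above, Ehhadh, a peroxisomal enzyme of β-oxidation, differed by -0.93 (adjusted p = 1.40e-04) and Vnn1, a pantetheinase, by -1.05 (adjusted p = 0.00734). The male-higher gene, Cidea, a lipid droplet protein, differed by 1.66 ± 0.47 (SE, adjusted p = 0.013). The male-higher count was 0 without male replicate 4 and 2 without female replicate 2. Among 30 genes of fatty acid and triglyceride synthesis 2 were male-higher, with Elovl3 the largest, and 4 female-higher (13.3%), against 3 and 3 after quantile normalization. Only 2 were female-higher without male replicate 5, and 1 male-higher without male replicate 2, male replicate 6 or female replicate 4. The desaturases Fads2 and Fads1 differed by -0.57 (adjusted p = 1.32e-04) and -0.37 (adjusted p = 0.0158), the second of which was not called after quantile normalization (adjusted p = 0.102). The other Fads2 probes, at -0.33 to -0.06, were not called. Of the other Fads1 probes, that at -0.43 was called and that at -0.44 was not. Fasn, at 0.01, Elovl2, at 0.00, and Elovl5, at -0.36, were not called. Of 21 genes of sterol biosynthesis 3 were female-higher (14.3%), among them Tm7sf2 at -0.35 and Srebf2 at -0.33, and 0 after quantile normalization. There were 0 without female replicate 3, female replicate 4 or male replicate 5, and 1 without male replicate 3, male replicate 6 or female replicate 6. Of 19 clock genes 0 were called.

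Components of growth hormone signalling, described above as background, were examined gene by gene. Of 30 genes 10 were female-higher and 1 male-higher, and 6 and 1 after quantile normalization. Without female replicate 4 the female-higher genes numbered 6, and the male-higher gene was lost for 6 of the 11 mice left out in turn. By their brightest probes, the 4 clear female-higher genes were transcription factors and receptors. Cux2, the female-typical repressor, measured 4.97, 4.69, 4.96, 4.68 and 5.23 in males and 7.71 to 10.19 (median 8.98) in females, with separate groups (log2 difference -3.91, SE 0.30, adjusted p = 1.09e-13). Prlr, the prolactin receptor, differed by -2.64 ± 0.21 (SE, adjusted p = 1.21e-13), Tox, a nuclear DNA-binding protein, by -1.81 ± 0.23 (SE, adjusted p = 7.49e-08), and Esr1, the oestrogen receptor α, by -1.16 ± 0.15 (SE, adjusted p = 2.45e-07). Socs2, a feedback inhibitor of growth hormone signalling, and Trim24 were female-higher by probes other than their brightest. The brightest probes differed by -0.84 (adjusted p = 0.273) and -0.24 (adjusted p = 0.156) and did not pass. The called probes differed by -2.16 (adjusted p = 9.79e-13) and -1.38 (adjusted p = 7.00e-10) for Trim24 and by -0.90 and -0.50 for Socs2. A further probe of each gene, at -0.42 for Trim24 and -0.74 for Socs2, did not pass. Igfals, Ptpn1, Hnf4a and Ptpn2 differed by -0.48, -0.43, -0.41 and -0.27 and were not called after quantile normalization. Cebpa was male-higher at 0.45 ± 0.15 (SE, adjusted p = 0.0295).

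The receptor, the kinase and the transducers of the hormone were not called. Ghr differed by -0.02 ± 0.10 (SE), Jak2 by -0.10 ± 0.12, Stat5a by 0.00 ± 0.09 and Stat5b by -0.35 ± 0.15, and Igf1, the secreted target of the hormone, by -0.22 ± 0.12. Bcl6, the male-typical repressor, measured 11.93, 13.57, 13.14, 10.79 and 12.54 in males and 11.27 to 12.86 (median 12.65) in females. These values overlapped widely and the log2 difference was -0.06 ± 0.55 (SE, adjusted p = 0.953). Cish and Onecut1 likewise varied between mice of a sex, with differences of -0.21 ± 0.55 and 0.53 ± 0.56. The SE of Bcl6, Cish, Onecut1 and Socs2 was 0.52 to 0.56, larger than in the other members of the axis.

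**Figure D3:**
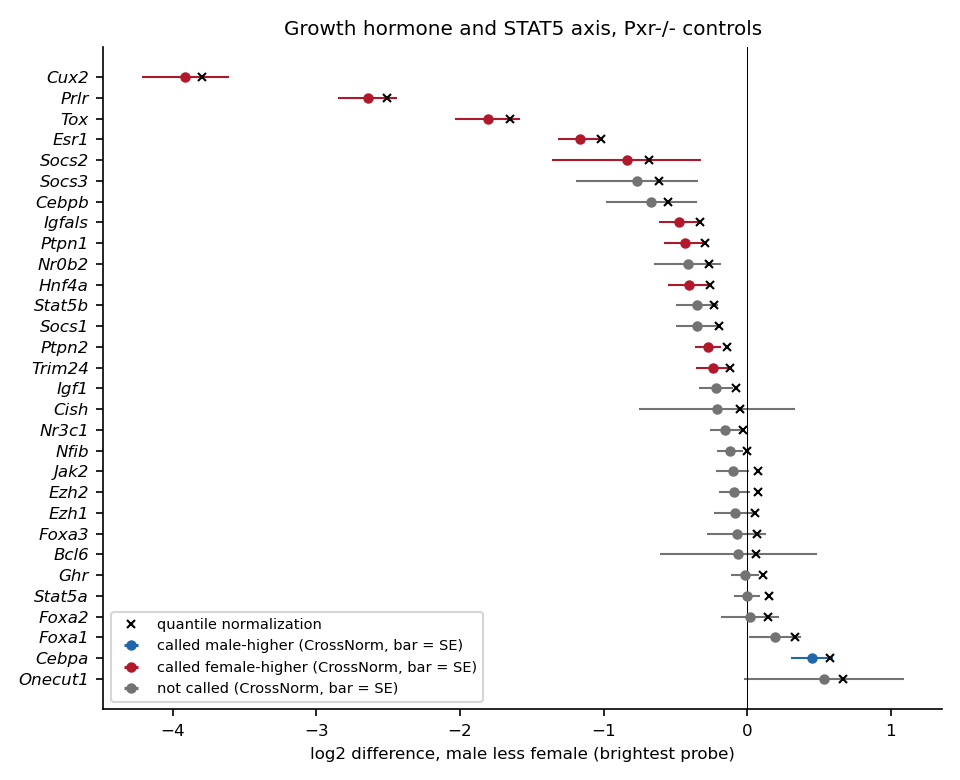
Log2 difference, male less female, of the 30 tested genes of the growth hormone and STAT5 axis in Pxr-/- control mice (x axis, brightest probe of each gene), as points with SE under CrossNorm, coloured by call, and as crosses under quantile normalization. Cux2, Prlr, Tox and Esr1 lie on the female side, at -3.91 to -1.16, and Ghr, Stat5a and Bcl6 near 0.

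With CrossNorm, some lists of cell type markers held more female-higher calls than the background of 15.9% of autosomal genes (7% after quantile normalization). The T and NK cell list had the largest share. Hepatocyte markers were at like levels, with a mean log2 signal over the list of 16.23 to 16.51 in males and 16.35 to 16.65 in females, and 2 of 13 female-higher (0 female-higher and 1 male-higher after quantile normalization). These 2 calls were lost for 7 of the 11 mice left out in turn. Of 14 T and NK cell markers 10 were female-higher and 0 male-higher (9 and 0 after quantile normalization), and the mean level was 7.08 to 7.39 in males and 7.60 to 8.14 in females, so the groups did not overlap. They included the granzymes Gzma and Gzmb, at -1.25 ± 0.23 (SE, adjusted p = 1.27e-04) and -1.07 ± 0.12 (SE, adjusted p = 5.02e-09), the chemokine Ccl5 at -1.03, Nkg7 at -0.98, and Cd3d, a subunit of the T cell receptor complex, at -0.82 (adjusted p = 2.90e-04). Of 18 macrophage markers 5 were female-higher and 1, Csf1r, was male-higher by a probe other than its brightest (2 and 1 after quantile normalization), with means of 8.76 to 9.64 in males and 9.41 to 10.15 in females, and Clec4f, a Kupffer cell lectin, at -0.64 (adjusted p = 0.0112). Neutrophil markers counted 3 female-higher of 7 (1 after quantile normalization), sinusoidal endothelial markers 4 of 14 (0) and stellate cell and fibroblast markers 4 of 15 (4). With CrossNorm these shares were 42.9%, 28.6% and 26.7%. The shares were 71.4% for T and NK cell, 27.8% for macrophage and 15.4% for hepatocyte markers, the last near the background. Of 8 B and plasma cell and 8 cholangiocyte markers 0 were called. Apart from the T and NK cell list, which had 9 or 10 calls each time, most of these counts moved when 1 mouse was left out. Macrophage markers ranged from 0 (without male replicate 6) to 9 (without female replicate 2), and endothelial markers from 0 (without female replicate 3 or male replicate 6) to 7 (without female replicate 1 or male replicate 4). Neutrophil markers numbered 1 without female replicate 1, male replicate 2 or male replicate 3. Without female replicate 1 there were 9 stellate cell and fibroblast markers and 1 B and plasma cell marker. Cholangiocyte markers numbered 5 without female replicate 2, and 1 without female replicate 1, male replicate 2 or male replicate 3.

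Of 5 adipocyte markers, Cfd and Plin1 (0.49) were male-higher, and Lep at 0.06, Fabp4 at -0.07 and Retn at -0.09 were not called. The mean adipocyte marker level was 7.0 to 7.65 in males and 6.31 to 7.0 in females. Among 5 pancreatic acinar markers Cela1 was male-higher at 1.2 ± 0.18 (SE, adjusted p = 4.29e-06), and the mean level was 8.68 to 9.10 in males and 8.56 to 8.87 in females. A second Cela1 probe, at 0.30, was not called. The part of other cell types in the differences of Cfd and of the immune genes was not tested.

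The sex differences were then set beside those of Pxr+/+ Cont mice, which share no array with the Pxr-/- mice. In Pxr+/+ mice 519 genes were male-higher (2.48%) and 7153 female-higher (34.2%), with 1887 and 1915 after quantile normalization. The male-higher genes shared by both genotypes were 388, which is 64.3% of the Pxr-/- and 74.8% of the Pxr+/+ list, and the shared female-higher genes were 2742, or 82.7% and 38.3%. After quantile normalization 978 male-higher genes (60.8% and 51.8%) and 1006 female-higher genes (68.7% and 52.5%) were shared. Past 2-fold, 118 male-higher genes (69.0% and 88.1%) and 208 female-higher genes (78.5% and 44.9%) were shared. A further 29 genes were called male-higher in Pxr-/- and female-higher in Pxr+/+ mice, and 7 the reverse. These counts take a call by any probe. Genes with probes called in both directions, 9 in Pxr-/- and 20 in Pxr+/+ mice, can therefore be among them. The test of the difference between genotypes, given below, passed for 5 genes, none of them called in opposite directions. The counts are thus not read as reversals with genotype. Over all 20921 genes the log2 differences of the 2 genotypes had a Pearson's r of 0.894, given as a description across genes, which are not independent, and 17346 had the same sign.

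All of the 24 genes with the largest differences in Pxr-/- Cont mice were called in the same direction in Pxr+/+ Cont mice and in Pxr-/- ATB mice. These genes were chosen for their size in Pxr-/- Cont mice, so which genotype had the larger difference is not counted for them. The test of the difference between genotypes, a contrast of contrasts in limma, passed for 0 of the 24, with a lowest adjusted p of 0.968 for the male-higher and 0.736 for the female-higher genes. Hsd3b5 differed by 7.75 in Pxr+/+ mice, Elovl3 by 7.04 and Sult2a1 by -10.50. The PXR targets Cyp2b10, Cyp3a11 and Akr1b7 differed by -4.51, -1.11 and -2.69, beside -5.26, -0.98 and -3.20 without PXR.

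**Figure D4:**
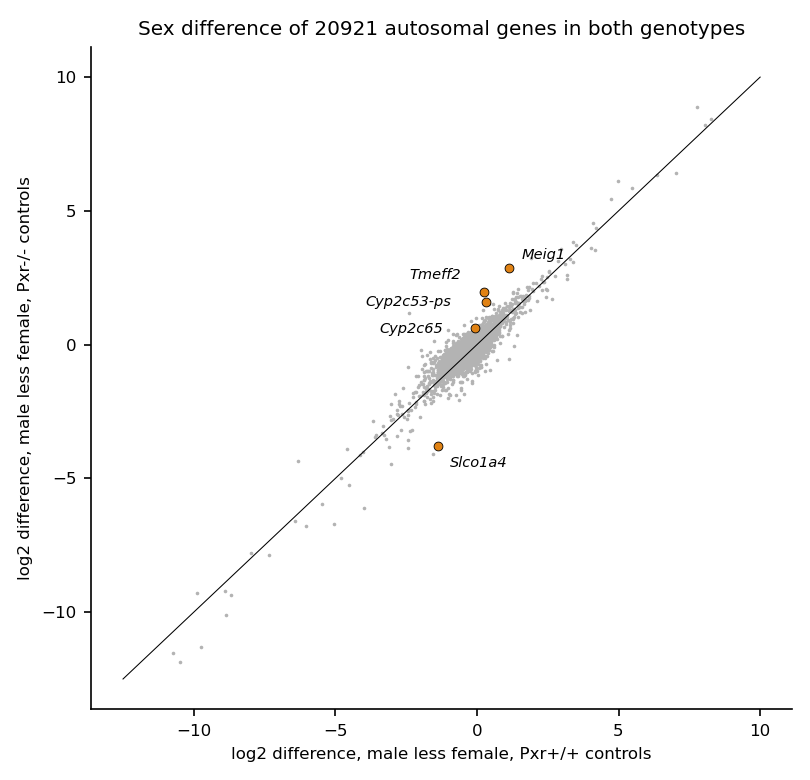
Log2 difference, male less female, of 20921 autosomal genes in Pxr+/+ control mice (x axis) and Pxr-/- control mice (y axis), 1 grey point per gene, with the line of equal values. Most genes with large differences lie near the line, and the 5 genes whose difference differed between genotypes are marked in orange, Slco1a4 below the line and the other 4 above it.

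The sex difference itself differed between the genotypes in 5 of 20921 autosomal genes (0.0239%). At an unadjusted p below 0.05 there were 1460 genes by any of 31636 probes. Chance alone gives many at that threshold, so this count is not read as a result. The clearest of the 5 was Slco1a4, the carrier whose promoter is shown above and a known PXR target. In Pxr-/- mice it measured 7.80, 7.32, 6.92, 6.65 and 7.22 in males and 10.12 to 11.33 (median 11.16) in females, and in Pxr+/+ mice 9.74 to 10.59 in males and 11.18 to 11.91 in females. The Pxr-/- males were thus below every other control mouse, while the female ranges of both genotypes overlapped. The sex difference was -3.81 ± 0.21 (SE, adjusted p = 2.13e-18) without PXR and -1.39 with it, a difference between the genotypes of -2.42 ± 0.30 (SE, adjusted p = 9.25e-06). Female replicate 1 was the lowest female, and without it the Pxr-/- sex difference was -3.98. The difference between the genotypes passed in 27 of 27 settings of the processing, none of which left out a Pxr+/+ mouse.

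The other 4 were male-higher in Pxr-/- mice. Meig1, known from spermatogenesis, was not well above background in any control female and measured 6.69, 7.17, 7.90, 7.21 and 7.67 in males without PXR, against 4.94 to 5.81 in males with it. All Pxr-/- males lay above all Pxr+/+ males, and the difference between the sex differences was 1.74 ± 0.25 (SE, adjusted p = 3.86e-04). Tmeff2, a transmembrane protein with follistatin-like domains, measured 7.11, 7.35, 6.74, 7.48 and 6.75 in Pxr-/- males and 4.52 to 5.82 (median 5.14) in Pxr-/- females, and 4.35 to 5.36 and 4.28 to 4.59 in Pxr+/+ males and females, where 2 of 12 mice were above background. Its sex differences differed by 1.72 ± 0.31 (SE, adjusted p = 0.0118). The pseudogene Cyp2c53-ps and Cyp2c65, both of the Cyp2c cluster on chromosome 19, had differences between the sex differences of 1.29 ± 0.24 (SE, adjusted p = 0.016) and 0.67 ± 0.11 (SE, adjusted p = 0.00322). Cyp2c65 was well above background only in the 5 Pxr-/- males among control mice, at 5.04 to 5.21, close to the limit, where it was at least 1.43-fold higher than in Pxr-/- females. Meig1 passed in 25, Cyp2c65 in 24, and Tmeff2 and Cyp2c53-ps in 23 of 27 settings, and the last 2 lost the call without male replicate 3 or male replicate 5.

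**Figure D5:**
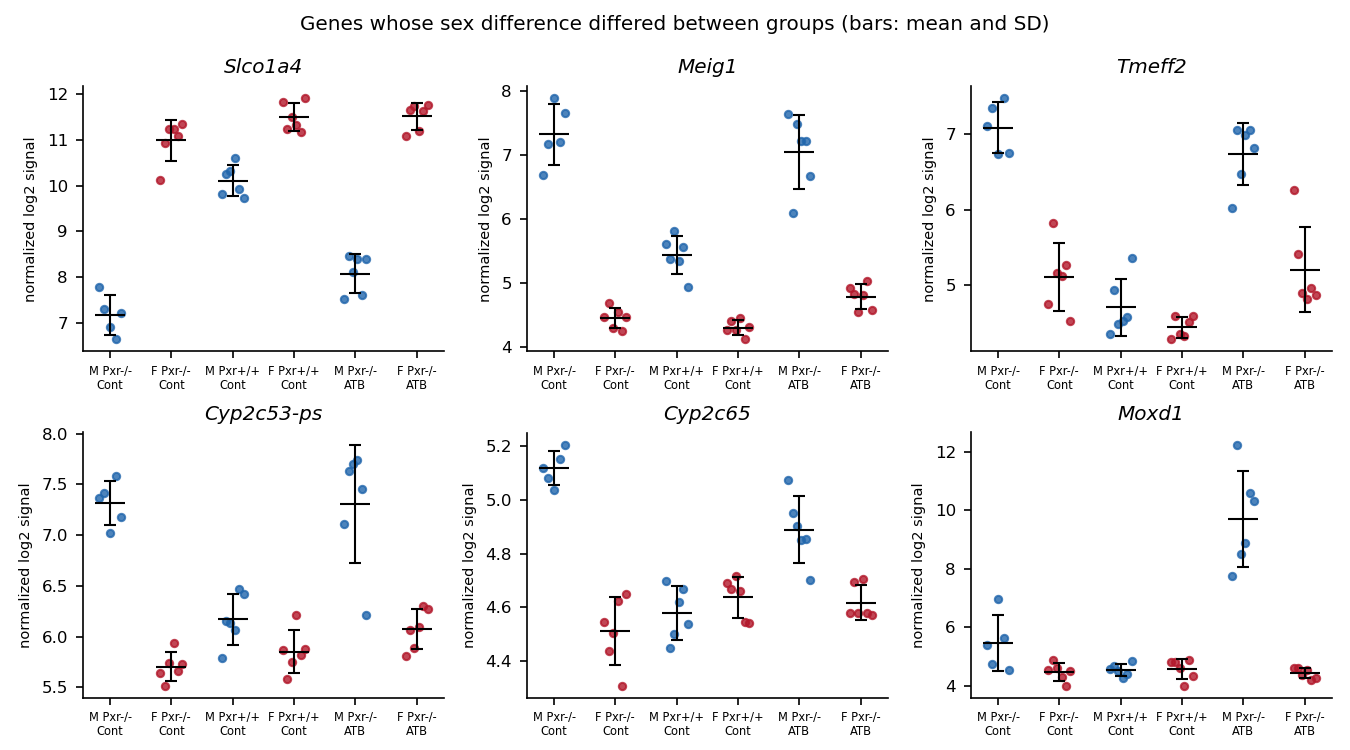
Normalized log2 signal (y axis, a separate scale in each panel) of each mouse, with bars for the mean and SD, in 6 groups given by sex (M or F), Pxr genotype and treatment (Cont or ATB), for the 5 genes whose sex difference differed between genotypes and for Moxd1. Slco1a4 is lowest in Pxr-/- males, Meig1, Tmeff2, Cyp2c53-ps and Cyp2c65 are highest in Pxr-/- males, and Moxd1 in Pxr-/- ATB males.

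The sex difference of Pxr-/- Cont mice was also set against that of Pxr-/- ATB mice. It differed in 1 gene (0.00478%), Moxd1, a monooxygenase related to dopamine β-hydroxylase. At an unadjusted p below 0.05 there were 1543 genes, a count that again is not read as a result. Moxd1 was at 5.41, 4.75, 6.97, 5.65 and 4.55 in Pxr-/- Cont males, 3 of them above background, and at 4.01 to 4.89 in Pxr-/- Cont females, where 0 of 6 were. In Pxr-/- ATB males it was at 7.77 to 12.24, above every other mouse of these groups, and in ATB females at 4.21 to 4.63. The sex difference was 0.99 ± 0.49 (SE, adjusted p = 0.165) in Cont mice, which was not called, and the difference from that of ATB mice was -4.29 ± 0.67 (SE, adjusted p = 0.00353). It passed in 24 of 27 settings, none of which left out an ATB mouse. The Slco1a4 difference was also present with antibiotics, with 7.53 to 8.46 in ATB males and 11.08 to 11.75 in ATB females of the Pxr-/- genotype.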

How the data were processed

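Liver RNA of 47 mice was hybridized by the authors to 1-colour Agilent mouse arrays, 1 array per mouse, and the images were read with Feature Extraction 10.10.1.1. The deposited scanner files give intensity per spot on a linear scale, as median signal, mean signal, local background and a background-subtracted processed signal, with no scaling between arrays. A further deposited file holds the authors' log2 values after filtering, wash batch correction and CrossNorm for 33383 probes, of which 32794 were also tested here. Groups were taken from the labels, and the positions of probes are those of the files (mm9). Gene symbols are those of the files, with 1535 probes renamed by accession.

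Median signals were log2 transformed, with 413 spot values marked as non-uniform left out, as were any marked as population outliers. Of 56605 probes, 32979 were tested, 31636 of them on autosomes, because 5 or more arrays of some group had them well above background. The wash effect was removed with group means kept, and CrossNorm was applied to 300 randomly drawn stacks, each with an array of each of the 8 groups, which were quantile normalized and averaged. Neither the authors' filter nor their stacking is given in the sources used here, so these rules are choices of the present work. Models with group and wash batch were fitted to all 47 arrays in limma 3.58.1 (R 4.3.3, data.table version 1.17.8), so the spread was shared by the 8 groups. P-values were Benjamini-Hochberg adjusted over all tested probes, sex chromosomes included. Calls needed an adjusted p of at most 0.05 together with a fold above 1.2 in any probe of the gene, and the printed value is from the probe with the brightest mean. Sex differences were compared with each other by an interaction contrast. Where a probe was above background in 0 mice of a group, the fold is a lower bound, taken against the higher of the lowest signal well above background and the probe's own signal on the same arrays.

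Named genes are the 12 with the largest difference in each direction among called genes whose groups did not overlap, up to 4 called members of each gene list, all tested genes of the growth hormone axis, genes whose sex difference differed between groups, and genes named for liver in the study. A few members were added beside these after their values were seen (for example C7, C8g, C9, Cidea, Ehhadh, Hc, Mbl2, Slc22a5, Slc22a29, Sult1e1, Sult2a8 and Vnn1). A few genes that count among these are not reported here. Members and lists were chosen with earlier results of these data known. The alternatives were quantile normalization, no normalization between arrays, spike-in scaling, the processed signal less its 75th percentile, normexp (offset 50) with quantile normalization, the authors' table, other filters, other uses of the wash batch, slide or replicate number as block, a fit of the compared groups alone, a 2-fold threshold and leaving out each of the 11 Pxr-/- Cont mice in turn. When a mouse was left out, the normalized values were kept and its array was dropped from the fit. No Pxr+/+ or ATB mouse was left out. Scripts were tested on simulated data. Figures were drawn with matplotlib 3.10.9. The number of arrays sets the precision.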

Additional observations from a re-analysis of the deposited data

Results flagged for a closer look

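In each of the 148 named genes, the gap between the most extreme mouse of a sex and its nearest neighbour was divided by the range of that sex and compared with Dixon's critical value. It was above this value for 14 genes in males and 16 in females, where chance gives about 1 in 20. Female replicate 1 was the extreme mouse in 14 of the 16. It was the highest female for Orm3 (0.771), Lcn2 (0.74), Cfd (0.788), C8a (0.659), C8b (0.696), Mup11 (0.626), Mup5 (0.851), Mup20 (0.705), Cebpb (0.679) and Socs3 (0.726), where the value in parentheses is the gap as a share of the range. It was the lowest female for Gm4956 (0.667), Cyp2a4 (0.701), Slco1a4 (0.657) and Cyp39a1 (0.718). The others were Cyp4a12a (0.671, lowest in female replicate 2) and Bcl6 (0.811, lowest in female replicate 6). In this mouse Lcn2 was at 15.98, against at most 10.67 in the other females, Orm3 at 13.96 against 9.69 and Socs3, a feedback inhibitor of cytokine signalling, at 11.86 against 9.48. Without it the Lcn2 difference did not pass (-1.45, adjusted p = 0.0642, limma), that of Orm3 was -1.81, and those of Mup5 and Cyp39a1 were 1.83 and -1.36.

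Among the males, replicate 2 was the highest for Sult3a1 (0.734) and Ly6g (0.74), replicate 2 was the lowest for Hsd3b5 (0.724) and Ugt2b35 (0.758), replicate 3 was the highest for Gzma (0.919), and replicate 4 was the highest for Ces3a (0.733), C8b (0.762), Mup11 (0.711), Serpina3h (0.843) and Cyp2c55 (0.721). Further, replicate 5 was the highest for Cish (0.91), replicate 5 was the lowest for Fads2 (0.714), replicate 6 was the highest for Acot3 (0.714) and replicate 6 was the lowest for Foxa3 (0.78).

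The sex difference differed from that of Pxr+/+ Cont mice, by the tested interaction contrast, in Slco1a4 (-2.42 on the log2 scale), Meig1 (1.74), Tmeff2 (1.72), Cyp2c53-ps (1.29) and Cyp2c65 (0.67), and from that of Pxr-/- ATB mice in Moxd1 (-4.29). Adjusted p-values stand in the report. Slco1a4 passed in 27 of 27 settings, and each of the others failed in at least 2.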

How the results depend on the processing

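Counts of called genes depended on the normalization. Male-higher and female-higher genes numbered 603 and 3316 with CrossNorm, 1608 and 1465 with quantile normalization, 2111 and 1532 with the processed signal, 1283 and 1225 with normexp, 381 and 1355 when only the compared groups were fitted, and 171 and 265 at a 2-fold threshold. With no normalization between arrays they numbered 564 and 2951, and with spike-in scaling 526 and 3007. The authors' table gave 1035 male-higher genes. Of these, 978, 1318, 786, 589 and 118 male-higher genes were shared with Pxr+/+ mice under quantile normalization, the processed signal, normexp, the authors' table and the 2-fold threshold, and 1006, 1052, 849, 1761 and 208 female-higher genes, with 1239 when only the compared groups were fitted. Sex differences that differed between genotypes numbered 3 with spike-in scaling, 3 with the processed signal and 2 when probes had to be above background on all 47 arrays, against 5. Those that differed between Cont and ATB mice numbered 0 with the processed signal, 0 with that filter and 0 when only the compared groups were fitted, against 1. The 11 Pxr-/- Cont mice were left out in turn, but no Pxr+/+ or ATB mouse was. Leaving out 1 mouse gave 472 to 618 male-higher and 2028 to 4263 female-higher genes (lowest without female replicate 3, highest without female replicate 5), 348 to 392 and 1757 to 3326 shared with Pxr+/+ mice, 3 to 7 that differed between genotypes (lowest without male replicate 3) and 1 to 2 that differed between treatments. Of 121 named genes called by their brightest probe, 98 were called under all 24 alternatives that could test them, 23 lost the call under at least 1, and 0 changed sign. These genes were called with CrossNorm on the same mice, and many were chosen for their size. Their keeping the call is therefore no independent check and cannot be set against the counts of all genes. The 23 included markers of macrophages (Cd5l, C1qc), neutrophils (S100a8, S100a9) and endothelium (Stab1, Pecam1), sterol genes (Tm7sf2, Srebf2) and growth hormone axis genes (Igfals, Ptpn1, Cebpa). Within wash batch 3 the Socs2 difference was 0.49, the reverse of its pooled direction. The cause was not tested. With the replicate number as a block, 574 genes were male-higher and 3156 female-higher, 380 and 2608 of them shared with Pxr+/+ mice, and 5 and 1 differed between genotypes and treatments. Same-numbered males and females of the Pxr-/- Cont groups shared a slide and a wash batch. Their deviations had correlations of 0.003 to 0.13, and 1 of 5 males correlated best with its own number. These low correlations do not show that the arrays were unpaired. With slide as a block, 595 genes were male-higher and 3466 female-higher. Signal limits the bounds given for probes that were not well above background in a sex, and the 5 and 6 mice limit the detection of differences in genes that varied within a sex.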
